A study of Sus scrofa with 16 samples.

Results

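The extracellular matrix genes LOX, DCN, SPARC, FBN1, COL3A1 and DPT were followed across the arrays of this study. They are 6 of 6765 genes that the platform annotation names by a single symbol, and all probe sets with such a symbol were taken, 10 of the 24123 on the array. Of these, 7 reached a log2 value of 4 on at least 4 arrays and were tested, among 11467 tested probe sets. The other 3, a second set each for LOX, DCN and SPARC, lay below 4 on all 16 arrays and carry no further value here.

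The connective tissue of a muscle wraps single fibres, bundles of fibres and the whole muscle, and it passes the force of the fibres on to tendon and bone. Its fibres are built from fibrillar collagens, which lysyl oxidases join by covalent crosslinks once the collagens are outside the cell. Small proteoglycans on the surface of the fibrils govern how they assemble, and fibrillins form the microfibrils on which elastic fibres are laid down. Fibroblasts make most of these proteins.

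The samples were skeletal muscle of 8 Iberian pigs, a fat Mediterranean breed, at 211 days of age. Each animal gave 1 psoas major (a muscle along the loin) and 1 diaphragm (the main breathing muscle), so that 16 arrays were made. Animals 2 and 3 (male) and 5 and 8 (female) were under 20% feed restriction, and animals 1 and 4 (male) and 6 and 7 (female) were on the high feeding level. All animals received the same pelleted diet before the restriction; the sources used here give neither the castration status of the males nor the start of the restriction. Values are deposited log2 expression values per probe set, and a difference of 1 is a 2-fold difference in signal. Levels of different probe sets cannot be set against each other, since probes bind with different strength. Between 11107 and 11243 probe sets per array reached a log2 value of 4, array medians lay between 3.56 and 3.62, and arrays of the same muscle correlated at 0.984 or more over all probe sets. The skeletal muscle markers CKM, DES and TTN were high in both muscles, with means from 12.6 to 15.2. Other fibre markers were less alike, such as the myosin heavy chain MYH2, with a mean of 15.26 in psoas and 12.52 in diaphragm.

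LOX, DCN, SPARC, FBN1 and DPT were lower in psoas than in diaphragm, and COL3A1 was higher. LOX and the first of the FBN1 probe sets had the largest differences. All 7 tested probe sets passed an adjusted p of 0.05 in limma (Benjamini-Hochberg over all tested probe sets, sex and feeding level as covariates), as did 27.0% of all tested probe sets. By direction, 6 of the 7 were lower and 1 higher in psoas, beside 12.4% lower and 14.6% higher among all tested probe sets. The genes were chosen with earlier results of these data known, so these shares are a description. The tissue was measured in bulk, so fewer cells of a type and less RNA per cell cannot be told apart.

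LOX encodes lysyl oxidase, the enzyme that starts the crosslinking of collagen and elastin. Its probe set measured 3.86 at the lowest, 4.29 at the median and 5.09 at the highest of the 8 psoas arrays, against 5.10, 5.65 and 6.71 in diaphragm. The muscles did not overlap, although the highest psoas arrays, those of animals 1 and 3, came close to the lowest diaphragm array, that of animal 2. LOX was 2.47-fold lower in psoas, a log2 difference of -1.31 ± 0.22 (SE, limma adjusted p = 9.3e-04, 95% interval -1.78 to -0.83). In psoas 3 arrays lay below 4, in the range near background where log2 values are compressed. With those values set to 4 the mean difference was -1.27.

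COL3A1 encodes type III collagen, a fibrillar collagen of stretchable tissues. It measured 5.02, 5.37 and 5.86 (lowest, median, highest) in psoas, against 4.82, 4.98 and 5.14 in diaphragm. Of the psoas arrays, 7 lay above the diaphragm range and that of animal 5 lay inside it. COL3A1 was 1.37-fold higher in psoas (log2 difference 0.45 ± 0.11 SE, limma adjusted p = 0.0067). Its spread was also wider there, with an SD of 0.30 in psoas and 0.13 in diaphragm (n = 8 each). Both levels were close to the floor of 4, and no second probe set carried the symbol COL3A1. Type III collagen is usually abundant in muscle connective tissue, and how well this probe set covers the transcript was not tested, so the direction for COL3A1 rests on 1 probe set of low signal.

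DCN encodes decorin, a small leucine-rich proteoglycan that binds collagen fibrils. Decorin signal was 11.31, 11.75 and 12.09 (lowest, median, highest) in psoas, against 12.16, 12.25 and 12.91 in diaphragm. No psoas array reached the lowest diaphragm array, although the 2 arrays of animal 3 nearly met. The log2 difference was -0.66 ± 0.14 (SE, limma adjusted p = 0.0034), or 1.58-fold lower in psoas. DPT encodes dermatopontin, a small matrix protein that binds decorin and collagen. It measured 5.05, 6.40 and 6.56 in psoas, against 6.03, 6.98 and 8.05 in diaphragm, and the muscles overlapped. DPT was 1.74-fold lower in psoas (-0.80 ± 0.24 SE, limma adjusted p = 0.024), the weakest call of the 7. This call was lost without animal 4 (adjusted p = 0.0504) or animal 6 (0.054), and when every probe set on the array was tested (0.068).

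SPARC encodes a calcium-binding matricellular protein that binds collagen and takes part in fibril assembly. Its signal was 12.68, 13.11 and 13.27 (lowest, median, highest) in psoas, against 13.33, 13.46 and 13.86 in diaphragm. Again no psoas array reached the diaphragm range. SPARC was 1.37-fold lower in psoas (log2 difference -0.45 ± 0.10 SE, limma adjusted p = 0.0037), the smallest size among the lowered genes. Its mean level was at percentile 98.6 of all tested probe sets, and the highest value on any array was 15.9.

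FBN1 encodes fibrillin-1, the main protein of microfibrils, and was the only one of the 6 genes with 2 tested probe sets. The first measured 5.96, 6.43 and 7.12 (lowest, median, highest) in psoas, against 7.07, 7.70 and 8.67 in diaphragm. The second measured 8.69, 9.08 and 9.66 in psoas, against 9.41, 9.87 and 10.33 in diaphragm. The psoas array of animal 3 entered the diaphragm range for both sets and that of animal 1 for the second only, so the muscles overlapped. The first set was 2.41-fold lower in psoas (-1.27 ± 0.24 SE, limma adjusted p = 0.0016) and the second 1.64-fold lower (-0.71 ± 0.17 SE, adjusted p = 0.0059). The sets agree in direction and differ in size.

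**Figure D1:**
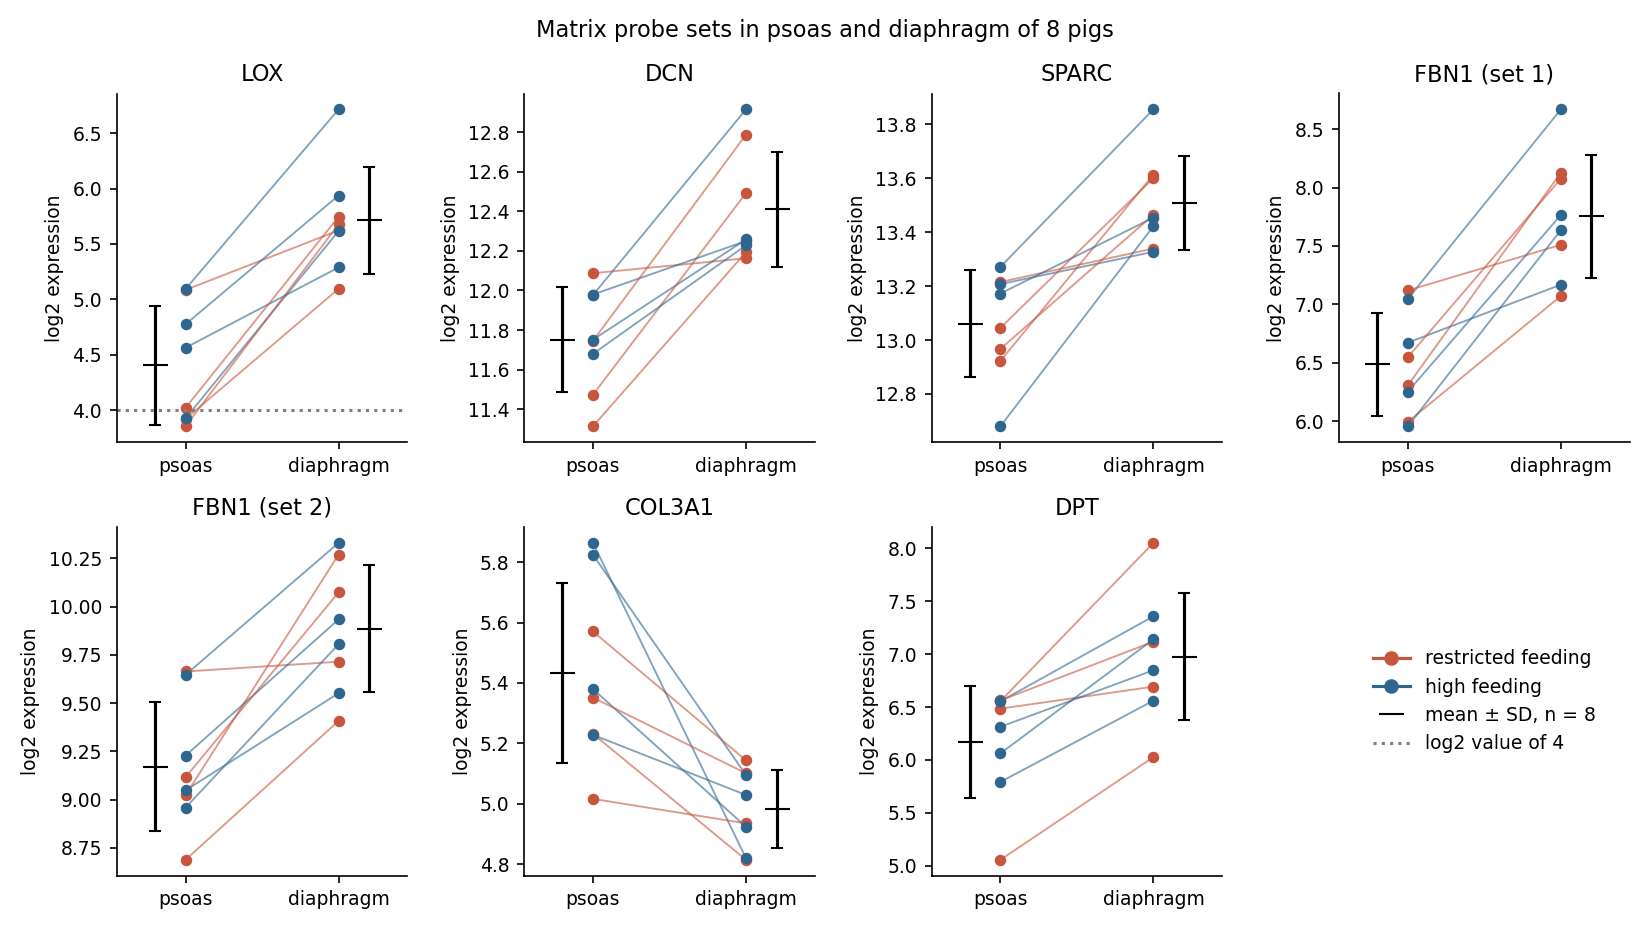
Log2 expression of the 7 tested probe sets, with psoas left and diaphragm right in each panel; a line joins the 2 muscles of 1 animal, colour gives the feeding level, and black marks give the mean ± SD of 8 arrays. Lines rise to the right in all 8 animals for LOX, DCN, SPARC, both FBN1 sets and DPT and fall in all 8 for COL3A1; each panel has its own axis, which does not start at 0.

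Within animals the direction was uniform: all 7 probe sets had the same sign in 8 of 8 animals, as had 21.4% of all tested probe sets. LOX, DCN and SPARC were lower in psoas with groups that did not overlap, as were 1.63% of tested probe sets. The size of the difference varied between animals. For LOX the psoas minus diaphragm difference was -1.82 in animal 8, -1.72 in animal 5, -1.69 in animal 6, -1.62 in animal 1, -1.17 in animal 2, -1.16 in animal 7, -0.72 in animal 4 and -0.54 in animal 3. Animal 3, a male under restriction, had the smallest difference for LOX, DCN (-0.08), both FBN1 sets (-0.39 and -0.05) and DPT (-0.21). For SPARC, animals 4 and 3 had the smallest differences, both -0.12 after rounding, beside -0.74 in animal 7. COL3A1 ran from 0.08 in animal 5 to 1.04 in animal 4.

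The actin sign of RNA quality moved in part with muscle. The difference between the 3' and 5' actin control probe sets, which grows as RNA degrades, was 3.45 ± 0.25 in psoas and 3.81 ± 0.45 in diaphragm (SD, n = 8 each), lower in psoas in 6 of 8 animals (exact sign-flip permutation, two-sided, p = 0.094). For the GAPDH controls, the mean psoas minus diaphragm value of this sign was -0.05, lower in psoas in 7 of 8 animals (exact sign-flip permutation, p = 0.26). For the EF1A controls it was 0.09, lower in psoas in 4 of 8 animals (exact sign-flip permutation, p = 0.53). By the actin difference, the diaphragm arrays of animals 1, 2, 3 and 5 stood apart, at 4.07 to 4.33, against 3.35 to 3.49 in those of animals 4, 6, 7 and 8. Animals 1, 2, 3 and 5 include 3 of the 4 restricted animals and 3 of the 4 males, so the actin sign also moved with feeding level and sex in diaphragm. It averaged 3.996 ± 0.435 in restricted and 3.624 ± 0.443 in high-fed animals there, and 3.63 ± 0.47 in females and 3.98 ± 0.42 in males (SD, n = 4 each), and its part in the feeding and sex results was not tested beyond the covariate values given with them. The mean muscle difference of LOX was -1.26 in animals 1, 2, 3 and 5 and -1.35 in animals 4, 6, 7 and 8. For the other sets these means were -0.73 and -0.59 (DCN), -0.47 and -0.42 (SPARC), -1.23 and -1.30 (first FBN1 set), -0.68 and -0.75 (second FBN1 set), 0.41 and 0.49 (COL3A1), and -0.64 and -0.97 (DPT). With animals 4, 6, 7 and 8 alone, 4 of the 7 passed (405 of all tested probe sets did), and DCN (limma adjusted p = 0.079), SPARC (0.15) and COL3A1 (0.13) did not.

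Other cell types in the tissue were followed by marker genes. For comparison, 12.2% of all 4571 tested genes were called lower and 17.3% higher in psoas. Of fibroblast markers, 2 of 4 tested were lower in psoas, GSN (-0.39) and CD34 (-0.32), and THY1 (-0.32) and FAP (-0.21) did not pass. The log2 of their summed signal was 10.63 to 11.25 in psoas and 10.98 to 11.73 in diaphragm, and TCF21, TCF7L2 and S100A4 were below 4 on every array. All 6 endothelial markers tested were lower in psoas by the probe set that stands for each (median -0.76, summed 9.93 to 10.55 in psoas and 10.68 to 11.25 in diaphragm). KDR and TIE1 were below 4 throughout. Second sets of ESAM (-0.23, limma adjusted p = 0.37) and CDH5 (-0.26, adjusted p = 0.48) did not pass, and that of PECAM1 did (-0.83, adjusted p = 0.0015). Of 4 adipocyte markers 3 were lower in psoas, FABP4, CFD and LPL (summed 11.06 to 11.83 in psoas and 12.04 to 12.71 in diaphragm), with LEP below 4. Of smooth muscle and pericyte markers, RGS5 was lower and CNN1 higher of 5 tested (summed 11.67 to 12.65 in psoas and 12.07 to 12.83 in diaphragm), with MYLK below 4. Of 3 immune markers 1 was lower, CD74 (summed 7.64 to 8.43 in psoas and 8.40 to 9.25 in diaphragm), with PTPRC, CD14 and CD3E below 4. All 7 liver markers were lower in psoas, with a summed signal of 6.93 to 7.85 in psoas and 8.02 to 11.36 in diaphragm. Of these, ALB, APOC3, FGB, HP and TF were below 4 on every psoas array. They came to be tested through their diaphragm arrays alone, so their direction is no separate support. The mesothelial markers KRT8, KRT18, KRT19 and WT1 and the tendon marker TNC were below 4 on every array. Of 8 skeletal muscle fibre markers tested, 2 were higher and 1 lower in psoas. The log2 of their summed signal was 17.62 to 17.76 in psoas and 17.42 to 17.50 in diaphragm. The part of these cell types in the differences of the 6 genes was not tested.

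Other matrix genes were followed as lists. Of 159 further genes listed as collagens, collagen enzymes, proteoglycans, microfibril, matricellular and basement membrane proteins, matrix proteases, TGF-beta signalling and matrix receptors, 75 were on the array and 52 were tested. In psoas 15 of the 52 were lower and 3 higher, with a median difference of -0.21, beside 12.2% lower and 17.3% higher among all 4571 tested genes, whose median was 0.04. Among the 15, COL1A2 and POSTN came to be tested through diaphragm arrays alone, so their direction is no separate support. The count of lower genes depended on the fit: it was 23 with the animal as a random block, and 2 with animals 4, 6, 7 and 8 alone.

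Among collagens, 3 of 7 were lower and none higher, with a median of -0.43. COL6A3, a chain of the microfibrillar type VI collagen around fibres, was 1.49-fold lower (-0.58 ± 0.15 SE, limma adjusted p = 0.0093). COL4A2 of basement membranes was lower (-0.43), and COL1A2, a chain of type I collagen, was lower in psoas (-0.55), where all 8 arrays lay below 4. In diaphragm 3 arrays of COL1A2 also lay below 4, so it came to be tested through diaphragm arrays alone. COL3A1 was the only called collagen that was higher in psoas, and COL5A1 (-0.48, adjusted p = 0.072), COL6A2 (-0.19, adjusted p = 0.067), COL5A3 (0.03) and COL15A1 (-0.01) did not pass. A second COL5A1 probe set did pass, at -0.51 (limma adjusted p = 0.038).

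Of collagen processing and crosslinking genes besides LOX, 3 of 11 were lower and 1 higher, with a median of -0.14. PCOLCE2, an enhancer of procollagen cleavage, was 2.24-fold lower in psoas, at 7.55 ± 0.61 against 8.72 ± 0.60 in diaphragm (SD, n = 8 each; limma adjusted p = 0.0045). CRTAP, part of the prolyl 3-hydroxylation complex, was lower (-0.66), as was PLOD3, a lysyl hydroxylase (-0.39). PLOD1, another lysyl hydroxylase, was higher (0.22, adjusted p = 0.037). The LOX relatives LOXL1 (-0.71, adjusted p = 0.062) and LOXL4 (0.13) did not pass, and 7 psoas and 3 diaphragm arrays of LOXL1 were below 4.

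All 6 tested proteoglycans besides DCN had negative differences (median -0.61), as had 43.8% of all tested genes. Of the 6, 4 were called: ASPN (-0.82), BGN (-0.72), SRGN (-0.69) and PRELP (-0.53). For BGN 3 psoas arrays lay below 4. For VCAN, which was not called, 7 psoas and 5 diaphragm arrays did. ASPN and BGN, like DCN, are small leucine-rich proteoglycans; SRGN is the intracellular proteoglycan of secretory granules. LUM, the neighbour of DCN in gene order, had -0.45 ± 0.19 (SE, limma adjusted p = 0.088). Of 8 matricellular genes besides SPARC and DPT, 2 were lower. They were SPARCL1, the closest relative of SPARC (-0.50 ± 0.12 SE, adjusted p = 0.0075), and POSTN, periostin. POSTN was below 4 on all psoas arrays and on 4 diaphragm arrays, which ran from 2.69 to 7.22, so no fold is given. It was lower in psoas in 6 of 8 animals and came to be tested through diaphragm arrays alone. MFAP5, a microfibril partner of fibrillins, had -0.59 and missed the threshold (adjusted p = 0.051), and the 4 basement membrane genes did not pass by the probe set that stands for each. One of 3 further LAMC1 sets was called lower in psoas (-0.37, limma adjusted p = 0.015), and the others had -0.13 and -0.05.

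Among matrix proteases and inhibitors, MMP2 (-0.68, limma adjusted p = 0.0013) and the collagen-degrading cathepsin CTSK (-0.90, adjusted p = 0.0046) were lower in psoas. TIMP2, an inhibitor of metalloproteases, was higher (0.72), but a second TIMP2 probe set measured -0.01. Of 5 TGF-beta signalling genes 1, the co-receptor ENG, was lower (-0.41), and 1 matrix receptor of 4, the integrin ITGB5, was higher (0.49).

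**Figure D2:**
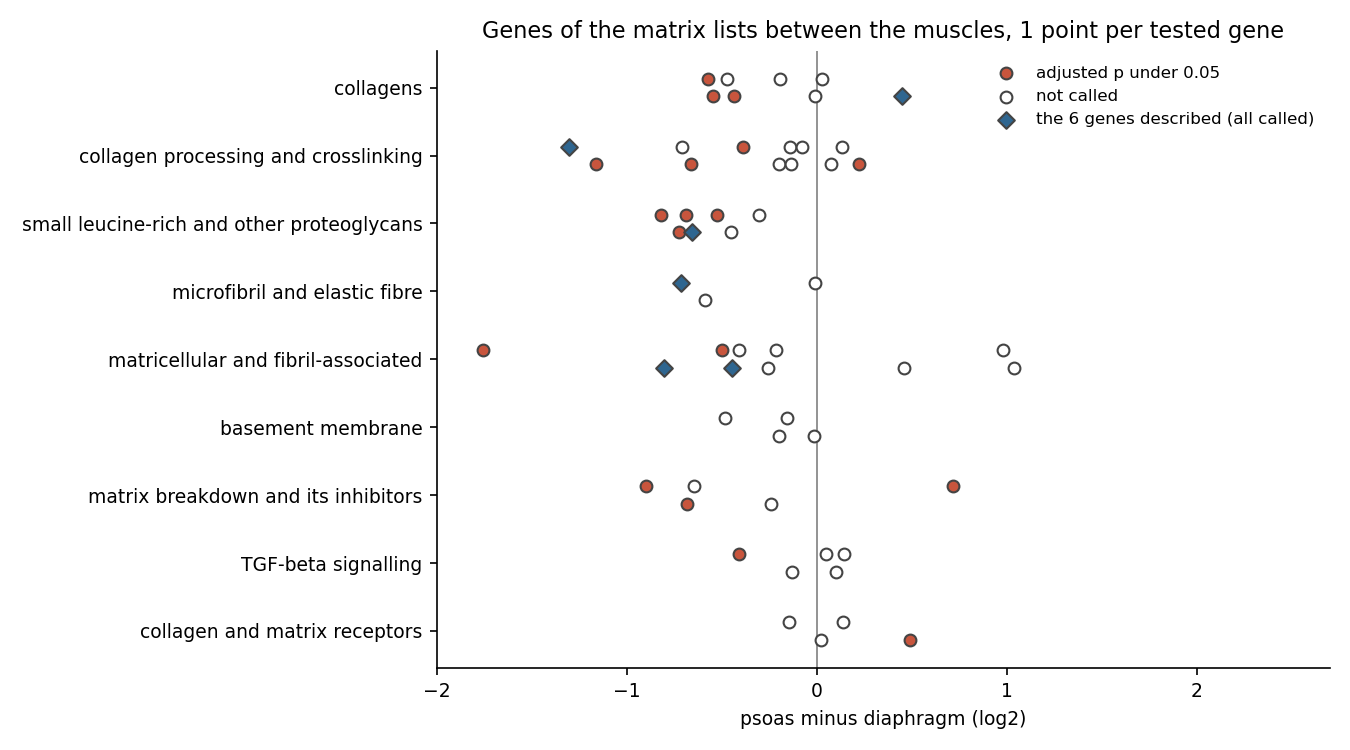
Psoas minus diaphragm log2 difference of each tested gene of the 9 matrix lists, 1 probe set per gene; diamonds are the 6 genes described, filled circles other genes at adjusted p under 0.05 and open circles genes that did not pass. Most filled points lie left of 0, and COL3A1, PLOD1, TIMP2 and ITGB5 lie to the right; the far left point is POSTN, whose psoas arrays were all below a log2 value of 4.

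Feed restriction did not give a called difference in any of the 6 genes. On the means of each animal's 2 muscles, limma called 0% of all tested probe sets at adjusted p under 0.05, and 12.7% had an unadjusted p under 0.05, none of them among the 7. LOX had the largest estimate, -0.36 ± 0.26 (SE, 95% interval -0.97 to 0.25, limma adjusted p = 0.60), an interval of 0.51-fold to 1.19-fold. The other 6 estimates lay between -0.13 and -0.01, and the widest interval was that of DPT, -0.72 to 0.70. For every set the restricted and high animals overlapped, where 5.97% of tested probe sets did not.

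The same comparison was made within each muscle, where limma also called 0% of tested probe sets (unadjusted p under 0.05 in 11.3% in psoas and 9.60% in diaphragm, and in 0 of the 7 in either). LOX in psoas was 3.92, 5.09, 4.02 and 3.86 in restricted animals 2, 3, 5 and 8, against 5.09, 4.56, 3.93 and 4.78 in animals 1, 4, 6 and 7 on high feeding. In diaphragm it was 5.10, 5.62, 5.75 and 5.68 in restricted animals, against 6.71, 5.29, 5.62 and 5.94 on high feeding. Both pairs of groups overlapped, as did those of the other sets, where 4.98% of tested probe sets in psoas and 4.88% in diaphragm did not, and the LOX estimate was -0.37 in psoas and -0.35 in diaphragm. Single animals carried much of the LOX estimate. Without animal 1 it was -0.14 on animal means and -0.01 in diaphragm, and without animal 2 it was -0.17 on animal means, -0.14 in psoas and -0.19 in diaphragm. Without animal 7 it was -0.19 in psoas, without animal 3 it was -0.61 in psoas, and without animal 4 it was -0.58 in diaphragm. With the grouping of animals 1, 2, 3 and 5 as covariate it was -0.64 on animal means and -0.73 in diaphragm, and none of these passed.

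COL3A1 in psoas was 5.57, 5.23, 5.02 and 5.35 in restricted animals 2, 3, 5 and 8, against 5.82, 5.86, 5.23 and 5.38 in animals 1, 4, 6 and 7 on high feeding. The 2 highest values were those of males on high feeding, and the groups overlapped. Its estimate in psoas was -0.28 ± 0.14 (SE, 95% interval -0.60 to 0.04, limma adjusted p = 0.48), and in diaphragm 0.03. Without animal 3 the COL3A1 estimate in psoas was -0.18. In psoas the remaining estimates ran from -0.19 (DCN) to 0.01 (first FBN1 set), and in diaphragm from -0.11 (first FBN1 set) to 0.00 (DCN and DPT).

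**Figure D3:**
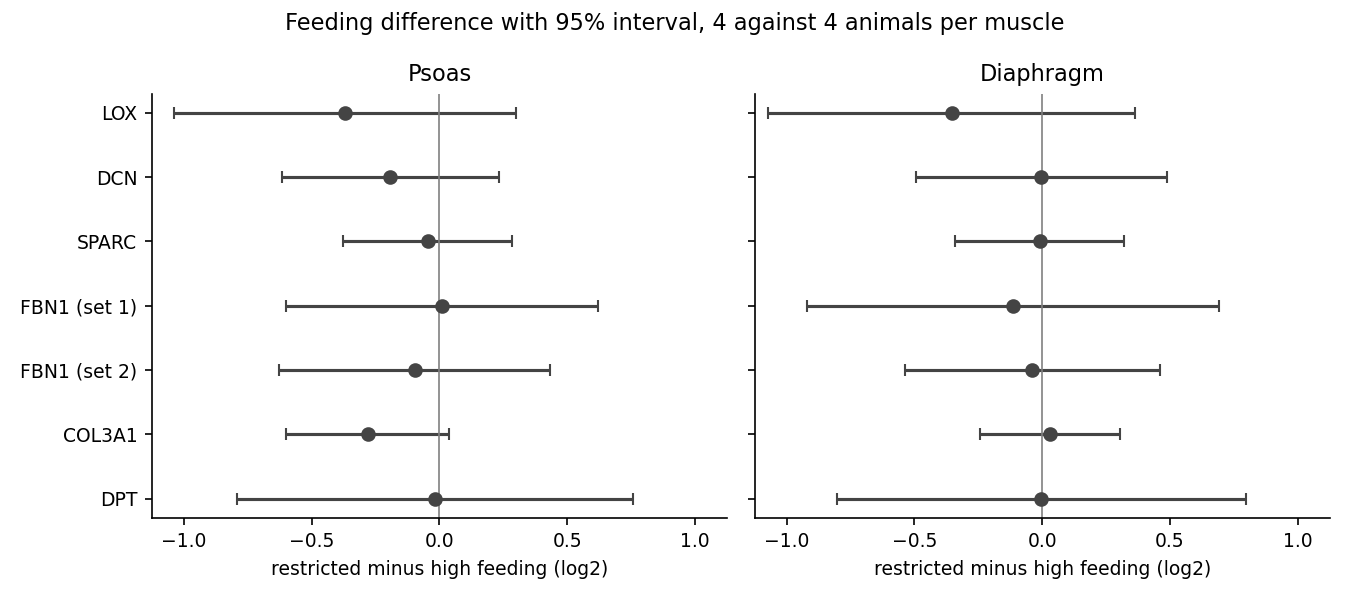
Restricted minus high feeding log2 difference of the 7 probe sets in psoas (left) and diaphragm (right), with 95% intervals from limma (4 against 4 animals). Every interval includes 0; LOX has the largest estimates, -0.37 and -0.35, and COL3A1 in psoas has the interval least centred on 0.

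Whether the muscle difference depended on feeding was tested on the animals' own differences. Limma called 0% of tested probe sets, and 6.07% had an unadjusted p under 0.05. For COL3A1 the psoas minus diaphragm difference was 0.29 in restricted animals and 0.61 in high-fed animals, a difference of -0.31 ± 0.15 (SE, adjusted p = 0.81). LOX had -1.31 in restricted and -1.30 in high-fed animals. DCN had -0.75 and -0.57, SPARC -0.47 and -0.43, the first FBN1 set -1.20 and -1.33, the second -0.74 and -0.69, and DPT -0.81 and -0.80. At restricted feeding 6 of the 7 passed (17.9% of tested probe sets did), COL3A1 being the exception (limma adjusted p = 0.086). At high feeding 5 of the 7 passed (16.0% of tested probe sets did), without DCN (0.061) and SPARC (0.059). The test of the difference between feeding levels, above, passed for none of these genes. Leaving out animal 2, 5 or 8 reduced the 6 calls at restricted feeding to 2, 3 and 3.

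Of collagen processing and crosslinking genes besides LOX, 10 of 11 had a negative feeding estimate, as had 61.1% of all tested genes. Their median was -0.38, beside -0.05 over all tested genes, and limma called none of the 11, with an unadjusted p under 0.05 in 4. The other matrix lists had medians between -0.23 and 0.16. None of the 52 genes passed, and 9 had an unadjusted p under 0.05, as had 12.7% of all tested probe sets.

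No call was made between females and males in the 6 genes, in limma on animal means, where 0.183% of tested probe sets passed. DPT had the largest estimate, 0.52 ± 0.31 (SE, 95% interval -0.20 to 1.23, adjusted p = 0.68). Its animal means were 6.84, 6.60, 6.58 and 7.30 in females 5 to 8, against 6.96, 5.54, 6.59 and 6.18 in males 1 to 4, and these overlapped, where 4.40% of tested probe sets did not. Without animal 2 the DPT estimate was 0.21, and without animal 8 it was 0.33.

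The psoas minus diaphragm difference had a lower mean in females than in males for all 7 probe sets, that is, more negative for the 6 lowered sets and smaller for COL3A1. Of all tested genes, 58.3% had a lower mean in females. None passed adjustment, and limma called 0% of tested probe sets, while 10.1% had an unadjusted p under 0.05, among them 3 of the 7. The first FBN1 set differed by -1.82, -1.51, -1.68 and -1.53 between the muscles of females 5 to 8, against -1.62, -1.08, -0.39 and -0.50 in males 1 to 4. Male 1 lay among the females and the other 3 males above them. The sexes overlapped for all 7 sets, where 5.54% of tested probe sets did not. The difference between the sexes was -0.74 ± 0.27 (SE, limma unadjusted p = 0.024, adjusted p = 0.45). The second FBN1 set had -0.45 ± 0.20 (SE, adjusted p = 0.49), LOX -0.59 ± 0.26 (0.50) and COL3A1 -0.41 ± 0.15 (0.45). The first FBN1 set averaged 6.27 ± 0.24 in females and 6.71 ± 0.52 in males in psoas, and 7.90 ± 0.24 in females and 7.60 ± 0.73 in males in diaphragm (SD, n = 4 each). Without animal 3 the second FBN1 set had -0.26, and with the actin difference as covariate the first set had -1.13 and LOX -0.98, none of them called. DCN (-0.12), SPARC (-0.14) and DPT (-0.23) had smaller estimates. Over the 52 other matrix genes the median was -0.27, beside -0.05 over all tested genes. Limma called none of them, and 10 had an unadjusted p under 0.05.

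**Figure D4:**
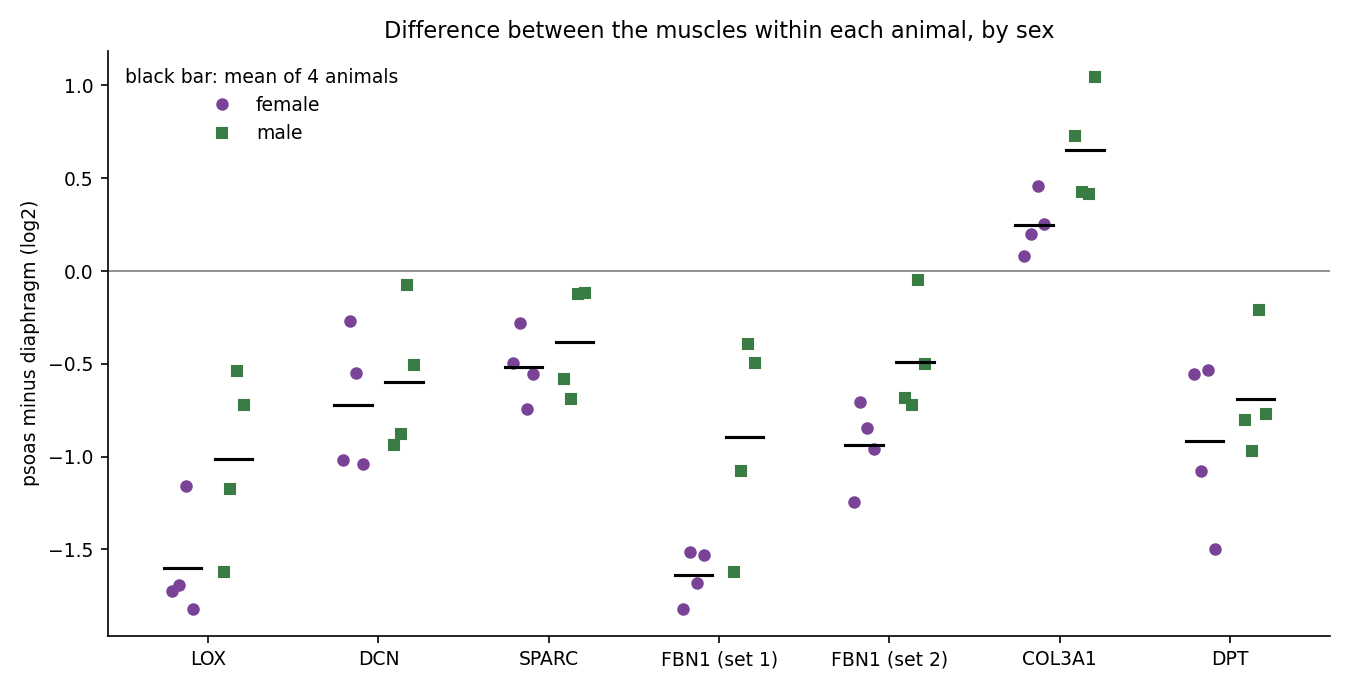
Psoas minus diaphragm log2 difference within each of the 8 animals, females left and males right for each probe set; black bars are means of 4 animals. The female mean lies below the male mean for all 7 sets, the groups overlap for all 7, and none of these differences passed adjustment.

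The genes' levels were compared over the 8 animals within each muscle, as 15 pairs per muscle with 1 probe set per gene. The 10 pairs without COL3A1 were all positive in both muscles, with a median Pearson r of 0.61 in psoas and 0.74 in diaphragm. With COL3A1, 4 of 5 were positive in psoas and 5 of 5 in diaphragm. Without the 2 animals farthest from the first gene's median, r was negative in psoas for LOX with SPARC (-0.38) and with FBN1 (-0.07). So it was for DCN with DPT (-0.24) and SPARC with DPT (-0.34). In diaphragm the 10 pairs stayed positive, down to 0.08 for DCN with SPARC. How often other genes pair so was not tested. No pair of the 30 passed Benjamini-Hochberg adjustment over the 30 (exact permutation, two-sided). The pair DCN and FBN1 in psoas had r = 0.89 (exact permutation p = 0.0040, adjusted 0.094) and Spearman's rho = 0.93 (exact permutation p = 0.0022, adjusted 0.054), and r = 0.74 without the 2 animals farthest from the median of DCN. COL3A1 with SPARC had r = 0.82 in diaphragm (exact permutation p = 0.0088, adjusted 0.094), rho = 0.88 (exact permutation p = 0.0072, adjusted 0.054), and r = 0.32 in psoas (exact permutation p = 0.43). The genes of a pair were read from the same arrays. Whether the arrays of a muscle were hybridised or scaled together is not given in the sources used here. All 7 sets also come from the same 8 animals. The signs depended on sex and feeding level. In residuals after these 2, 0 of the 5 psoas pairs with COL3A1 were positive (r -0.45 to -0.18), beside 5 of 5 in diaphragm. Of the 10 pairs without COL3A1, 9 were positive in psoas and 10 in diaphragm in these residuals, with LOX and SPARC at -0.08 in psoas.

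By profile over all 16 arrays, likeness was measured as the root mean square difference between log2 values centred on each gene's own mean. DCN and FBN1 were each other's closest of 4570 genes, at 0.17 log2 units. The next closest to DCN were CD99 and POLR2B (0.19 and 0.20), and to FBN1 POLR2B and MFAP5 (0.17 and 0.20). LOX was closest to C1S (0.32), DAB2 (0.34) and F2RL2 (0.36), and SPARC to SRI, EF1ALPHA and PEAR1 (0.15, 0.15 and 0.16). DPT was closest to PROS1 (0.33), MMP2 (0.36) and PDGFRL (0.36). COL3A1 was closest to SKIV2L (0.15), RNF7 (0.17) and CRIPT (0.17), all with positive psoas minus diaphragm differences, while SPARC, at rank 3504 of 4570, was the closest of the other 5 genes. Much of this likeness is the muscle difference, since the measure spans both muscles.

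In the gene order of assembly Sscrofa11.1, used here for neighbours only, 7 of the genes within 3 places on either side of the 6 were tested. Next to DCN, BTG1 was lower in psoas (-0.39 ± 0.09 SE, limma adjusted p = 0.0058) and LUM did not pass. Next to SPARC, ATOX1 was higher (0.25, adjusted p = 0.022), opposite to SPARC. SNX24, 3 places from LOX, was lower (-0.59, adjusted p = 0.0028). WDR75 near COL3A1, EID1 near FBN1 and ATP1B1 near DPT did not pass.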

How the data were processed

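The authors deposited log2 expression values, 1 per probe set of an Affymetrix porcine array and sample, which were used without further scaling. They were made with GCRMA, per the submitters' processing notes. Neither a version nor whether the arrays were processed as 1 set is given in the sources used here. GCRMA evens out the distributions of arrays processed together and compresses values near background. RNA was isolated with a kit and labelled as biotinylated cRNA, per the labels' protocols. The number of arrays limits the precision.

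Gene names came from the platform annotation, in which 10099 probe sets had 1 symbol, 198 several and 13826 none. Probe sets at or above a log2 value of 4 on at least 4 of 16 arrays were tested, without 124 control probe sets. Tests were those of limma 3.58.1 (lmFit, eBayes; R 4.3.3), two-sided, with Benjamini-Hochberg adjustment over all 11467 tested probe sets, and called means an adjusted p under 0.05. Muscles were compared on 16 arrays, adjusting for sex and feeding level. Feeding levels and sexes were compared on animal means, or within a muscle on 8 arrays. Dependence of the muscle difference on feeding or sex was tested on the animals' own differences. The scripts were tested on simulated data. For a gene with several tested probe sets, the one of highest mean stood for it in lists, pairs and profiles. Pairs of genes were tested by enumerating all pairings of animals, with SciPy 1.17.1. Named list genes were the called ones, up to 5 per list and direction by smallest p, and the most alike were the 3 closest genes with 1 symbol.

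Animal numbers in the labels mark the same animal in both muscles. Residuals of the 2 arrays of an animal correlated at 0.0724 to 0.257 over probe sets, positive in all 8 animals. The animals are separate, but nothing says whether arrays were hybridised in 1 batch. Alternatives covered the filter, scaling, trend, array weights, covariates, RNA quality, the animal block and leaving out animals. The 6 genes and the gene lists were chosen with earlier results of these data known. No sequences are printed, since no sequence file was used here.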

Additional observations from a re-analysis of the deposited data

Results flagged for a closer look

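Among 49 groups of 4 to 8 samples (a probe set in a muscle, in a feeding level within a muscle, or as animal differences), 4 held a sample whose gap to its nearest neighbour was a large share of the group's range by Dixon's criterion, which chance meets in about 1 of 20 groups. LOX in restricted psoas was 5.09 in animal 3, with the nearest of the other 3 animals at 4.02. In high-fed diaphragm DCN was 12.91 in animal 1, against 12.26 or less in the others. SPARC in high-fed psoas was 12.68 in animal 7, below the nearest value of 13.17. For DPT, restricted psoas of animal 2 measured 5.05, and the nearest value was 6.48. The causes were not tested.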

How the results depend on the processing

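Between the muscles, both FBN1 sets passed under every alternative run, and LOX under all 19 in which it was tested. LOX and COL3A1 were not tested under the log2 filter of 6, which they did not reach. No called probe set of the 7 changed sign. Leaving out 1 animal gave 2162 to 2906 called probe sets, 6 to 7 of the 7 described, 11 to 17 lower and 2 to 3 higher matrix list genes. The animal as a block is the paired analysis: with the replicate block, 3836 (fixed) and 3897 (random) probe sets were called, and all 7 described. Of the 52 matrix list genes, 21 (fixed block) and 23 (random block) were lower in psoas; the block changed no other call of the 7. A log2 filter of 6 left 36 of these genes tested and 9 lower. The list counts under alternatives were chosen after seeing the data.

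Animals 4, 6, 7 and 8 alone gave 405 called probe sets, 4 of the 7 described and 2 lower list genes, and 45 and 0 of the 7 at high feeding. Only 1 of these 4 animals was restricted and 1 male, so the counts of 0 and 0 at restricted feeding and 9 between the sexes rest on a lone animal, assumed to vary like the others, and say nothing about stability. At high feeding, no filter gave 981 and 3 of the 7, and leaving out 1 animal 672 to 1818 and 4 to 6. At restricted feeding, no filter gave 1096 and 3 of the 7, array weights 3104, the actin difference as covariate 3 of the 7, the grouping of animals 1, 2, 3 and 5 as covariate 1209, and leaving out 1 animal 707 to 2070 and 2 to 6.

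For feeding, leaving out 1 animal called 0 to 1 on animal means, 0 to 1 in psoas and 0 to 2 in diaphragm, none of them described here. In psoas no filter gave 2. In diaphragm no filter gave 1, the log2 filter of 6 gave 1, array weights 1 and no covariates 2. Between the sexes, the grouping of animals 1, 2, 3 and 5 as covariate gave 12, the random replicate block 39 and leaving out 1 animal 13 to 23. For the muscle difference by sex that covariate gave 3. In the pairs of genes, residuals after sex and feeding level gave 4 calls by Pearson's r and 0 by Spearman's rho. The causes were not tested. Values near a log2 value of 4, as for LOX and COL1A2 in psoas, lie close to background.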

Other observations

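The 4 genes of the matrix lists with the smallest unadjusted p-values for feeding are named here after their values were seen, and none passed adjustment. P4HA2, a prolyl 4-hydroxylase subunit, had a restricted minus high feeding log2 difference of -0.62 ± 0.13 (SE, limma unadjusted p = 0.0014, adjusted p = 0.28). SERPINH1, the collagen chaperone of the endoplasmic reticulum, had -0.62 ± 0.16 and PLOD1 -0.38 ± 0.08 (SE, limma adjusted p = 0.28 each). TNXB, a tenascin of collagen fibrils, had -0.80 ± 0.18 (SE, limma adjusted p = 0.28).

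FN1, fibronectin, had a psoas minus diaphragm difference that was lower in females than in males, with a female minus male value of -1.11 ± 0.23 on the log2 scale (SE, limma unadjusted p = 0.0011, adjusted p = 0.34), and was likewise chosen after its value was seen. THBS2 had an SD of 3.54 in psoas and 0.94 in diaphragm (n = 8 each). In psoas 3 of its arrays lay below 4, near background, and in diaphragm 0 did.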
